A study of Mus musculus with 6 samples.

Results

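The 10 genes Ret, Gfra1, Gfra2, Gdnf, Ntrk3, Ntf3, Alk, Ltk, Nrg1 and Nrg3 encode neurotrophic ligands and the receptors that sense them. They were taken by symbol from the 31053 genes counted in every library of a single-nucleus RNA sequencing study of the mouse colon, and each symbol was found in all 6 libraries. The study asked how repeated stress and a glucocorticoid alter the cells of the enteric nervous system, the neurons and glia of the gut wall. All mice were wild-type C57BL/6J. The Dexamethasone group (1 library) was given injections of the synthetic glucocorticoid dexamethasone for 7 days, the Stress group (3 libraries) was restrained daily for 7 days, and the Control group (2 libraries) had a control treatment. Nuclei from total colon were sorted on the DNA dye DAPI and on INTACT, a tag on the nuclear envelope, and the driver of that tag was not given in the sources used here. The labels do not say how many animals stand behind a library, so the p-values below measure the spread between libraries, which may be technical.

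GDNF-family ligands bind a GFRα co-receptor, GFRα1 for GDNF and GFRα2 for neurturin, and the complex activates the RET tyrosine kinase, which enteric neurons and their progenitors need to survive and to colonise the gut. NT-3, encoded by Ntf3, activates the TRKC kinase encoded by Ntrk3. ALK and LTK are related receptor tyrosine kinases that share ALKAL ligands, and the neuregulins encoded by Nrg1 and Nrg3 act on ErbB receptors.

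Of 11040 deposited barcodes, 3430 nuclei (31.1%) passed the filter on genes detected and mitochondrial counts, and they fell into 22 clusters. Clusters were named from marker genes, with the 10 genes kept out of the clustering. Although all nuclei were labelled as enteric nervous system cells, 527 were neuron-like and 882 glia-like, and the rest included 437 epithelium-like, 311 smooth muscle-like, 205 fibroblast-like and 157 lymphatic endothelium-like nuclei. The 23 enteroendocrine-like nuclei formed a cluster of their own. No pair of libraries shared more than 3 barcodes. Neuron-like nuclei numbered 70 in the Dexamethasone library, 34, 100 and 104 in the Stress libraries and 157 and 62 in the Control libraries. The Dexamethasone neurons were the shallowest, with a median of 1062 UMIs (unique molecular identifiers, counted RNA molecules) per nucleus, against 2943 to 8906 in Stress and 2355 and 4538 in Control. The limit of 5% mitochondrial counts set aside 557 further neuron-like barcodes with 9637811 UMIs, more than the 4509716 UMIs of the neuron-like nuclei kept, and where Stress and Control did not overlap, the levels in those barcodes are given as well.

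Levels are given as CPM, the UMIs of a gene per 1000000 UMIs of the class, cluster or library named. Genes were compared with themselves and not with each other, because long genes can gather more nuclear counts: in the GENCODE M21 annotation Ltk spans 9.11 kb, Ret 46.0 kb and Nrg3 1104 kb. Whether intronic reads and read strand were used in counting is not given in the sources used here. Annotated genes on the opposite strand overlap Gfra1 (1 gene), Alk (1 gene), Ntrk3 (2 genes), Nrg1 (2 genes) and Nrg3 (3 genes), so reads from those partners may be included. On the same strand, annotated genes overlap Alk (3 genes), Ntrk3 (2 genes) and Nrg3 (1 gene), and how reads shared with them were counted is likewise not given.

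The 10 genes divided the enteric neurons and glia into distinct receptor profiles. Ret, Ntrk3 and Ltk were found almost wholly in neuron-like nuclei, Gfra1 was higher in glia-like than in neuron-like nuclei, and Alk was found in both. Within neurons, Gfra1 and Ltk marked the Vip and Gal cluster and the Nos1 cluster, whereas Gfra2 and Alk were highest in the Sst cluster. The ligand genes Gdnf and Ntf3 gave few UMIs everywhere and had their highest levels in smooth muscle-like nuclei. These differences between cell classes are a description of clusters and carry no test.

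**Figure D1:**
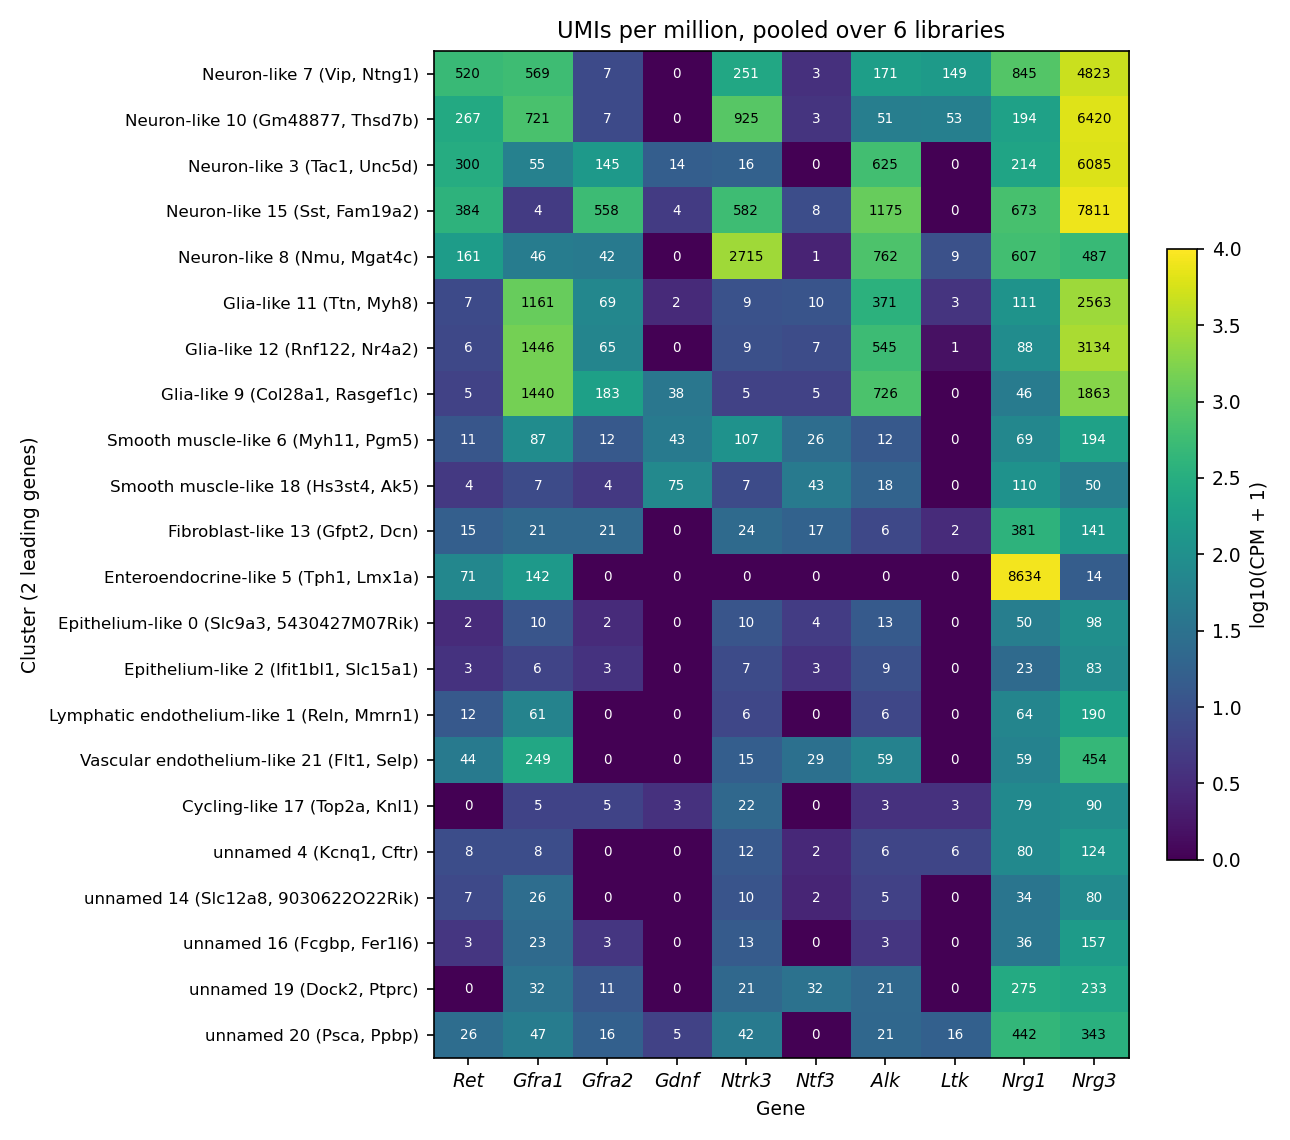
Level of each of the 10 genes (columns) in each of the 22 clusters (rows, with the name given from markers, the cluster number and the 2 leading genes), as CPM pooled over the 6 libraries; colour gives log10(CPM + 1) and the printed number the CPM. Ret and Ltk are highest in neuron-like rows, Gfra1 peaks in the 3 glia-like rows, and Nrg1 reaches 8634 CPM in the enteroendocrine-like row.

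Sequence before the transcription start is shown for 5 of the genes, chosen because Gfra1 and Ltk shared their 2 highest neuron clusters, Alk was highest in the Sst neurons, where no Ltk UMI was found, and Gdnf and Ntf3 shared smooth muscle-like nuclei. Each line holds the 250 bases before a RefSeq start (build GRCm38.p6), 5′ to 3′ on the gene's strand, with every E-box (CANNTG, the core bound by basic helix-loop-helix factors) in capitals. RefSeq entries were matched for 6 of the 10 genes, and for Gdnf and Ntf3 the first of 2 entries is printed. The windows are chr19:58455399-58455648 on the minus strand for Gfra1, chr2:119758526-119758775 on the minus strand for Ltk, chr17:72604308-72604557 on the minus strand for Alk, chr15:7809798-7810047 on the plus strand for Gdnf and chr6:126166745-126166994 on the minus strand for Ntf3.
Gfra1: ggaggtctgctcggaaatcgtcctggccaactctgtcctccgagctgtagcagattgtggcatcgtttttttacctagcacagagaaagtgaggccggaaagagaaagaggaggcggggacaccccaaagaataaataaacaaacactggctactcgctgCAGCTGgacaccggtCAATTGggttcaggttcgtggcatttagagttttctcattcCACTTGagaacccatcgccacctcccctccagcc
Ltk: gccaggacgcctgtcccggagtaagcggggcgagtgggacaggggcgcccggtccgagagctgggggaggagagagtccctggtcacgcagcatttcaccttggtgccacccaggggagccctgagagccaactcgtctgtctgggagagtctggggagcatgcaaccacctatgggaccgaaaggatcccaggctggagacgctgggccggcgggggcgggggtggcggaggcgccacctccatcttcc
Alk: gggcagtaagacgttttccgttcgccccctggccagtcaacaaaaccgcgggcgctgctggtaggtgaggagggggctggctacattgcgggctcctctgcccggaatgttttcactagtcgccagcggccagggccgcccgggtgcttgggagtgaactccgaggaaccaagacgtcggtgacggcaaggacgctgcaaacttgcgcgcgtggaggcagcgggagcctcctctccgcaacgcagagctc
Gdnf: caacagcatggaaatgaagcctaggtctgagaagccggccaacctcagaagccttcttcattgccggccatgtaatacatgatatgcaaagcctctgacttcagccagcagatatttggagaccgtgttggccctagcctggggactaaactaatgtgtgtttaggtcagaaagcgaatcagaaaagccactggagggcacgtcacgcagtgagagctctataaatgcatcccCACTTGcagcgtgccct
Ntf3: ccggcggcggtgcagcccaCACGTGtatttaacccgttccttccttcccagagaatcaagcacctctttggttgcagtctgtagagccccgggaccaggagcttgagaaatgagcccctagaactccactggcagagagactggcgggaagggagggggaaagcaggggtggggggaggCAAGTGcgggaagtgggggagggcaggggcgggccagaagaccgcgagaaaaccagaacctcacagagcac
The Gfra1 window held 3 E-boxes, the Ntf3 window 2 and the Gdnf window 1, and these letters were not in the Alk and Ltk windows. Across 32851 RefSeq windows of the same length, 66.2% held at least 1 E-box. The half-site AGAACA, the core bound by the glucocorticoid receptor, was searched on both strands and was in none of these windows, against 16.1% of all windows. The CArG box, the motif of serum response factor in smooth muscle genes, was likewise in none of them, against 1.47% of all windows. G and C made up 68.8% of the Ltk window, 65.2% of the Alk window, 62.0% of the Ntf3 window, 52.4% of the Gfra1 window and 50.8% of the Gdnf window.

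Gdnf, the ligand that attracts and sustains enteric neural crest cells, gave 91 UMIs in all nuclei kept, 53 of them in smooth muscle-like nuclei. There its level was 35.2 CPM in the Dexamethasone library, 65.4, 41.4 and 66.3 CPM in the Stress libraries and 67.2 and 33.3 CPM in the Control libraries, from 2 to 19 UMIs each. The 3 groups overlapped. The smooth muscle-like class held cluster 6 and cluster 18, and cluster 18 had none of the smooth muscle markers among its 10 leading genes. Gdnf was at 74.7 CPM in cluster 18, from 21 UMIs in 18 nuclei, and at 43.5 CPM in cluster 6. A further 17 Gdnf UMIs lay in 10 nuclei of the Tac1 and Penk neurons. The Col28a1 glia held 15, of which 9 came from 1 nucleus. No Gdnf UMI was found in 205 fibroblast-like and 437 epithelium-like nuclei, which allows a level of up to 6.43 CPM in fibroblast-like and 2.54 CPM in epithelium-like nuclei (3 UMIs of the class total, counting error only).

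Ntf3 gave 87 UMIs in all, of which 31 came from 25 smooth muscle-like nuclei. Its level there was 3.52 CPM in the Dexamethasone library, from 1 UMI. The Stress libraries stood at 80.0, 41.4 and 17.4 CPM, and the Control libraries at 57.6 and 33.3 CPM. The Dexamethasone library was the lowest of the 6, and Stress and Control overlapped. Neither Gdnf nor Ntf3 reached the count filter for a test in any class. Ntf3 was higher in glia-like than in neuron-like nuclei in 6 of 6 libraries, at 9.0 ± 4.32 CPM in glia and 1.81 ± 1.55 CPM in neurons (SD, n = 6 libraries), a difference resting on 3 to 7 UMIs per library in glia and 0 to 4 in neurons.

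Ret, the signalling receptor for all GDNF-family ligands, averaged 338 ± 84.4 CPM in neuron-like and 6.37 ± 4.31 CPM in glia-like nuclei (SD, n = 6 libraries), and neurons were higher in 6 of 6 libraries. At least 1 Ret UMI was seen in 58.4% of neuron-like nuclei, 2.15% of glia-like nuclei and 0.458% of epithelium-like nuclei, whose median depths were 4463, 3235 and 2364 UMIs. After thinning each nucleus with at least 1000 UMIs to that number, the shares were 20.3% in neurons, 0.864% in glia and 0.265% in epithelium. Shallower nuclei were left out, 78 of 527 neuron-like, 72 of 882 glia-like and 60 of 437 epithelium-like nuclei. In the barcodes set aside for mitochondrial counts Ret was at 284 ± 60.8 CPM in neuron-like and 11.3 ± 11.6 CPM in glia-like barcodes. Ret was present in all 5 neuron clusters. It was highest in the Vip and Gal neurons at 526 ± 166 CPM (SD, n = 6 libraries) and lowest in the Nmu neurons at 154 ± 156 CPM (n = 5 libraries with enough UMIs). The Sst, Tac1 and Penk, and Nos1 neurons lay between them at 347, 291 and 265 CPM, and each neighbour in that order overlapped the next. Within the Nmu neurons Ret was at 160 ± 96.4 CPM in Stress and only 29.5 ± 12.4 CPM in Control (SD, n = 2 libraries each). Single libraries there ran from 20.7 to 391 CPM.

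Gfra1, the GDNF co-receptor, averaged 1321 ± 265 CPM in glia-like nuclei, 4.22 times the 313 ± 76.5 CPM of neuron-like nuclei, and glia were higher in 6 of 6 libraries. The library ranges of the 3 glia clusters overlapped, with means of 1365 CPM in the Col28a1 glia, 1318 CPM in the Nr4a2 and Nr4a3 glia and 1216 CPM in the Frzb glia over all libraries, an order that differed between Stress and Control as given with the glia comparison. These glia held Gfra1 with almost no Ret. Among neurons Gfra1 was at 739 ± 83.5 CPM in the Nos1 cluster and 466 ± 221 CPM in the Vip and Gal cluster (SD, n = 6). The Nmu, Tac1 and Penk, and Sst clusters had only 43.6, 43.2 and 5.68 CPM. Over the libraries the Nos1 neurons ranged from 664 to 903 CPM, below the lowest library of the Frzb glia at 1039 CPM.

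Gfra2, the neurturin co-receptor, had nearly the reverse order among neurons. It was highest in the Sst neurons at 571 ± 131 CPM (SD, n = 4 libraries) and next in the Tac1 and Penk neurons at 164 ± 67.6 CPM (n = 6). The Vip and Gal and the Nos1 neurons, which led for Gfra1, had 8.11 and 6.76 CPM. Of 527 neuron-like nuclei, 182 had Gfra1 UMIs alone, 106 had Gfra2 UMIs alone and 16 had both. After thinning to 1000 UMIs the counts were 105, 55 and 0 of 449 nuclei. In the 557 neuron-like barcodes set aside for mitochondrial counts they were 295, 84 and 36. Ret UMIs were found in 130 of the 182 neurons with Gfra1 alone and in 70 of the 106 with Gfra2 alone. Glia differed from neurons here, since 160 of 882 glia-like nuclei had UMIs of both co-receptors and 20 had Gfra2 alone. The Col28a1 glia had the most Gfra2 of the glia, at 192 ± 108 CPM.

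Ntrk3, the NT-3 receptor TRKC, averaged 679 ± 186 CPM in neuron-like and 8.34 ± 6.21 CPM in glia-like nuclei, with neurons higher in 6 of 6 libraries. The Nmu neurons stood apart at 2539 ± 551 CPM (SD, n = 5 libraries), with their lowest library at 1862 CPM. The Nos1 neurons followed at 870 ± 132 CPM, with a highest library of 1002 CPM, so these neighbours did not overlap. Single nuclei weighed on the Nmu level, with 222 of 850 Ntrk3 UMIs in the library Stress 2 from 1 nucleus, and 40.2% of Nmu nuclei held an Ntrk3 UMI, against 72.6% of Nos1 nuclei. Median depths there were 1450 and 5438 UMIs, and after thinning to 1000 UMIs the shares were 47.7% and 54.7%, so that the Nmu neurons led in level and not in the share of nuclei. Nuclei with fewer than 1000 UMIs were left out of the thinned shares, 47 of 112 in the Nmu cluster and 7 of 135 in the Nos1 cluster. The Sst neurons had 516 CPM and the Vip and Gal neurons 281 CPM, and the Tac1 and Penk neurons only 17.4 CPM, from 19 UMIs in 94 nuclei. Smooth muscle-like nuclei had a higher mean than the Tac1 and Penk neurons, at 71.5 ± 36.6 CPM, from 81 UMIs in 31 nuclei, and the library ranges overlapped. Neuromedin U, encoded by Nmu, is a marker of sensory enteric neurons. Ntrk3 was therefore spread unevenly over types in which Ret was detected, although Ret was low in the Nmu neurons of the Control libraries.

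Alk, a receptor tyrosine kinase of the developing nervous system, was at 488 ± 177 CPM in neuron-like and 505 ± 155 CPM in glia-like nuclei, with neurons higher in 3 of 6 libraries and glia in the other 3. Ltk, its closest relative, was at 56.8 ± 18.1 CPM in neurons and 1.20 ± 1.49 CPM in glia, from at most 2 UMIs per glia library. Among neurons Alk was highest in the Sst cluster at 1152 ± 197 CPM (SD, n = 4), followed by the Nmu cluster at 916 CPM and the Tac1 and Penk cluster at 685 CPM. The Vip and Gal cluster had 304 ± 304 CPM (n = 6). Its libraries ran from 93.8 to 890 CPM and overlapped those of the Tac1 and Penk cluster, at 166 to 1189 CPM. The Nos1 neurons were lowest at 49.8 ± 19.6 CPM (n = 6), below every other neuron cluster in the order. Alk in the Nmu neurons rested on few nuclei, with 177 UMIs from 3 of 45 nuclei in the Dexamethasone library.

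The Vip and Gal neurons had an Ltk level of 184 ± 93.8 CPM and the Nos1 neurons 57.5 ± 31.4 CPM (SD, n = 6 libraries). The lowest Vip and Gal library, at 103 CPM, lay just above the highest Nos1 library at 101 CPM. The Nmu neurons had 6.13 CPM. No Ltk UMI was found among the 1175239 UMIs of the Tac1 and Penk neurons or the 502101 UMIs of the Sst neurons. Alk and Ltk UMIs occurred together in 28 neuron-like nuclei, with 170 holding Alk alone and 63 Ltk alone. Of those 28 nuclei, 18 were Vip and Gal neurons and 8 were Nos1 neurons.

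**Figure D2:**
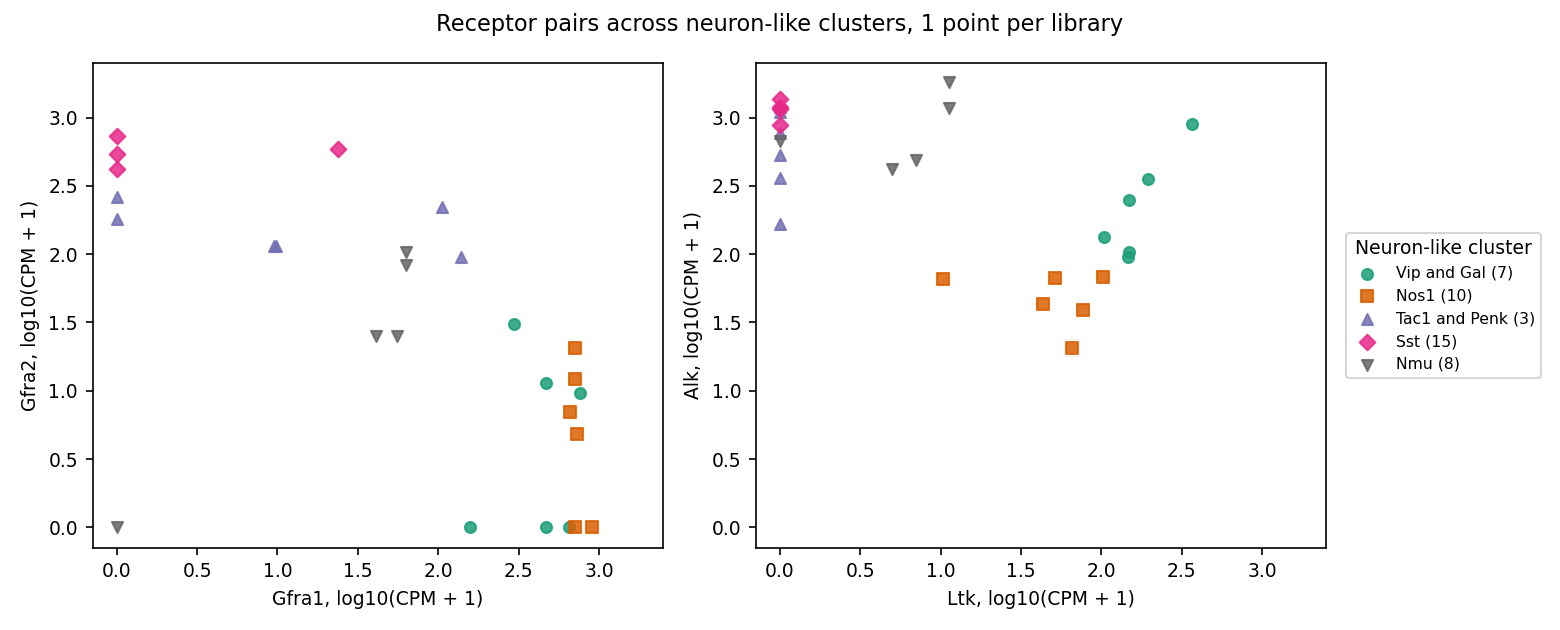
Gfra2 against Gfra1 (left) and Alk against Ltk (right) in the 5 neuron-like clusters, as log10(CPM + 1) with 1 point per library that had at least 20000 UMIs in the cluster. Vip and Gal and Nos1 points lie at high Gfra1 and Ltk, and Sst and Tac1 and Penk points lie at high Gfra2 and Alk with Ltk at 0. In Alk the Vip and Gal points overlap the Tac1 and Penk points.

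Nrg1, a neuregulin with many isoforms, averaged 466 ± 107 CPM in neuron-like and 98.2 ± 49.6 CPM in glia-like nuclei, and fibroblast-like nuclei had 415 ± 248 CPM (SD, n = 6 libraries). Among neurons it was highest in the Vip and Gal cluster at 839 ± 192 CPM, and the Sst and Nmu clusters overlapped that level at 743 and 589 CPM. The Nos1 and the Tac1 and Penk neurons had 241 and 199 CPM. The enteroendocrine-like nuclei, hormone-releasing cells led by Tph1, gave 608 Nrg1 UMIs from 10 of 23 nuclei, a pooled level of 8634 CPM. A single nucleus held 233 of them. By library these UMIs numbered 0 from 1 Dexamethasone nucleus, 9, 0 and 49 from 2, 3 and 3 Stress nuclei and 119 and 431 from 6 and 8 Control nuclei. The nuclei were too few for a comparison between the groups.

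Nrg3, a neuregulin of the nervous system that acts on ErbB4, was found in 88.6% of neuron-like and 87.6% of glia-like nuclei, and in 20.8% of epithelium-like nuclei. After thinning to 1000 UMIs the shares were 89.5% in neurons, 77.5% in glia and 10.6% in epithelium. It averaged 5132 ± 427 CPM in neurons and 2742 ± 426 CPM in glia (SD, n = 6 libraries), and neurons were higher in 6 of 6 libraries. Levels were 7545 CPM in the Sst neurons, 6445 CPM in the Nos1 neurons, 6089 CPM in the Tac1 and Penk neurons and 4581 CPM in the Vip and Gal neurons. The Nmu neurons were the exception at 491 ± 366 CPM (n = 5), below every glia cluster. The highest Nmu library, at 952 CPM, lay below the lowest library of the Col28a1 glia, at 1047 CPM. Ntrk3 and Nrg3 thus set the Nmu neurons apart in opposite directions.

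In neuron-like nuclei, no member passed the adjusted threshold between Stress and Control, but Alk and Gfra2 had the smallest p-values of the 8 that could be tested. Alk was at 270, 359 and 373 CPM in the Stress libraries, against 605 and 610 CPM in the Control libraries. Every Stress library was below both Control libraries. Its log2 fold change was -0.90 ± 0.17 (SE; n = 3 Stress, 2 Control), with an adjusted p of 0.172 by edgeR's quasi-likelihood test. Gfra2 was at 56.5, 74.2 and 114 CPM in the Stress libraries, against 169 and 157 CPM in the Control libraries. Again the groups did not overlap, and the log2 fold change was -0.98 ± 0.24 with an adjusted p of 0.252 by edgeR. Nrg3 also did not overlap, at 4365, 5126 and 5277 CPM in Stress against 5500 and 5520 CPM in Control, with a log2 fold change of -0.22 ± 0.19 and an adjusted p of 0.725 by edgeR. Thus 3 of 8 members were lower in every Stress library than in every Control library, against 11% of the 8066 genes tested. Counting either direction the background was 28.4%.

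No gene passed the threshold in this comparison by edgeR (0% of 8066), whereas 804 had an unadjusted p under 0.05 (9.97%) and DESeq2 called 20. Alk was among the 20, with an adjusted p of 0.0305 by DESeq2, and Gfra2 was not, at 0.213. The other members had log2 fold changes of 0.30 ± 0.26 for Ret, 0.11 ± 0.21 for Gfra1, 0.10 ± 0.28 for Ntrk3, -0.21 ± 0.32 for Ltk and -0.39 ± 0.24 for Nrg1, with adjusted p-values of 0.611 to 0.940 by edgeR. Ret was at 424, 262 and 396 CPM in Stress against 334 and 214 CPM in Control. Nrg1 was at 294, 571 and 390 CPM in Stress against 529 and 551 CPM in Control. In both genes the groups overlapped.

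**Figure D3:**
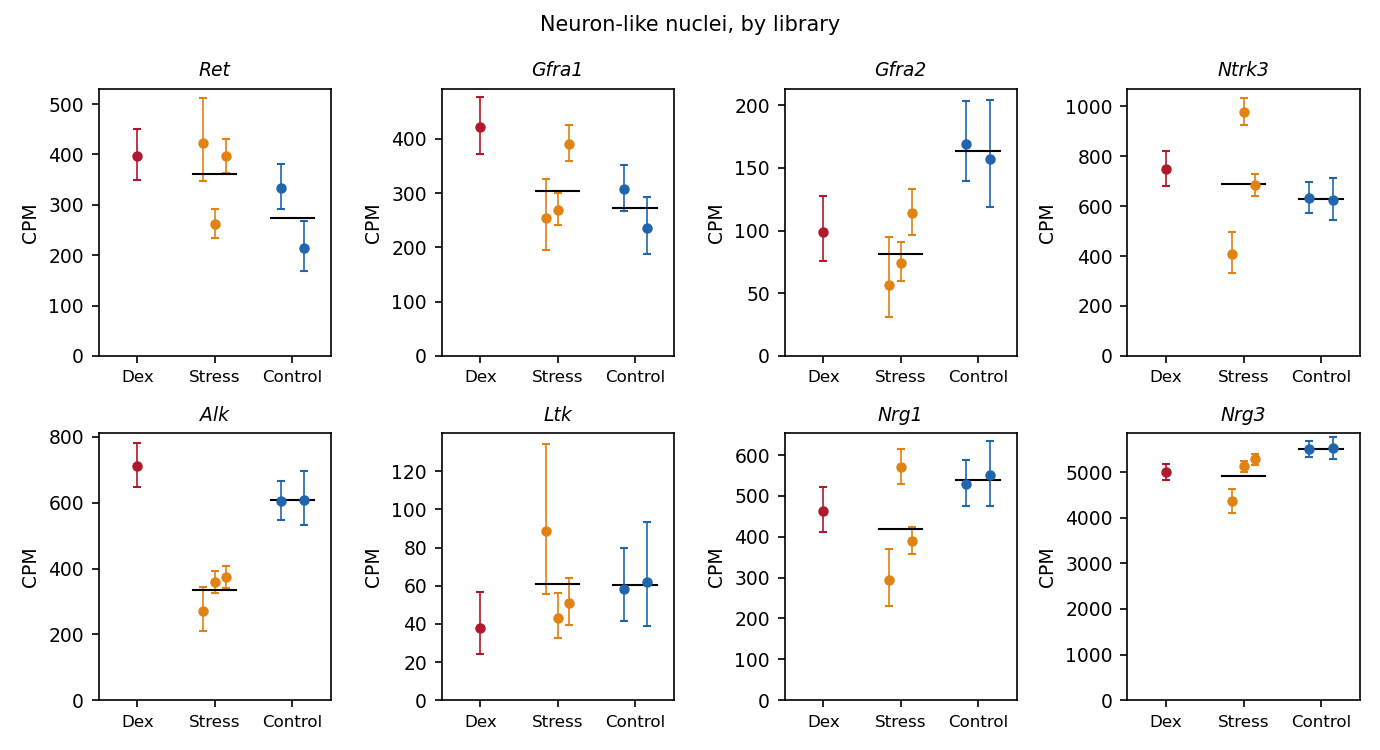
Level of the 8 tested genes in neuron-like nuclei by library, in CPM; each point is 1 library with its exact Poisson 95% interval for counting error, and the line is the group mean (Dex, Dexamethasone, n = 1; Stress, n = 3; Control, n = 2). Alk and Gfra2 show all Stress points below both Control points, and the single Dexamethasone point for Alk lies at 712 CPM, above all others among these nuclei.

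The Alk, Gfra2 and Nrg3 differences depended on which barcodes were counted. With nuclei of at least 500 genes and at most 2% mitochondrial counts, the log2 fold changes were -0.56 for Alk and -0.48 for Gfra2, with adjusted p-values of 0.909 for both by edgeR, and 0.063 for Nrg3 with an adjusted p of 0.994. In the neuron-like barcodes above the mitochondrial limit, Alk was at 331, 272 and 252 CPM in Stress against 209 and 406 CPM in Control, and Gfra2 at 40.1, 77.6 and 52.2 CPM in Stress against 62.5 and 68.9 CPM in Control. There the groups overlapped for both genes. Nrg3 overlapped as well, at 3877, 4325 and 4518 CPM in Stress against 4466 and 4835 CPM in Control, so that none of the 3 genes was apart there. With both sets of barcodes together, the log2 fold changes were -0.55 for Alk (adjusted p = 0.195) and -0.70 for Gfra2 (adjusted p = 0.203) by edgeR.

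By cluster, the Alk values of Stress and Control were apart in the Tac1 and Penk neurons and overlapped in the Sst neurons. In the Tac1 and Penk neurons Alk was at 166, 532 and 359 CPM in Stress against 772 and 1091 CPM in Control, a log2 fold change of -1.36 with an adjusted p of 0.608 by edgeR. In the Sst neurons, with at least 5 nuclei in each library, it was 1542, 1159 and 1198 CPM in Stress against 1363 and 887 CPM in Control, a log2 fold change of -0.02 with an adjusted p of 0.999. The Nmu neurons had too few nuclei in 1 Stress library for a test, and stood at 420 and 487 CPM in the Stress libraries with enough UMIs, against 1180 and 670 CPM in Control. The Stress mean of Alk was above the Control mean in the other clusters. It was 362 ± 457 against 302 ± 76.8 CPM in the Vip and Gal neurons, and 48.8 ± 14.9 against 43.5 ± 34.0 CPM in the Nos1 neurons (SD, n = 3 Stress, 2 Control). Gfra2 in the Tac1 and Penk neurons was at 113, 113 and 94.7 CPM in Stress against 180 and 261 CPM in Control, a log2 fold change of -1.05 with an adjusted p of 0.679 by edgeR. In the Sst neurons Gfra2 was also lower in Stress, at 478 ± 84.2 CPM against 663 ± 102 CPM in Control. Those means are from 2 libraries per group with at least 20000 UMIs in the cluster (SD). Whether these clusters differed from each other in the effect of stress was not tested. Single nuclei weighed on these sums: 74 of 81 Alk UMIs in the Nmu neurons of 1 Stress library came from 1 nucleus, and all 34 in the Vip and Gal neurons of another from 1 nucleus.

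**Figure D4:**
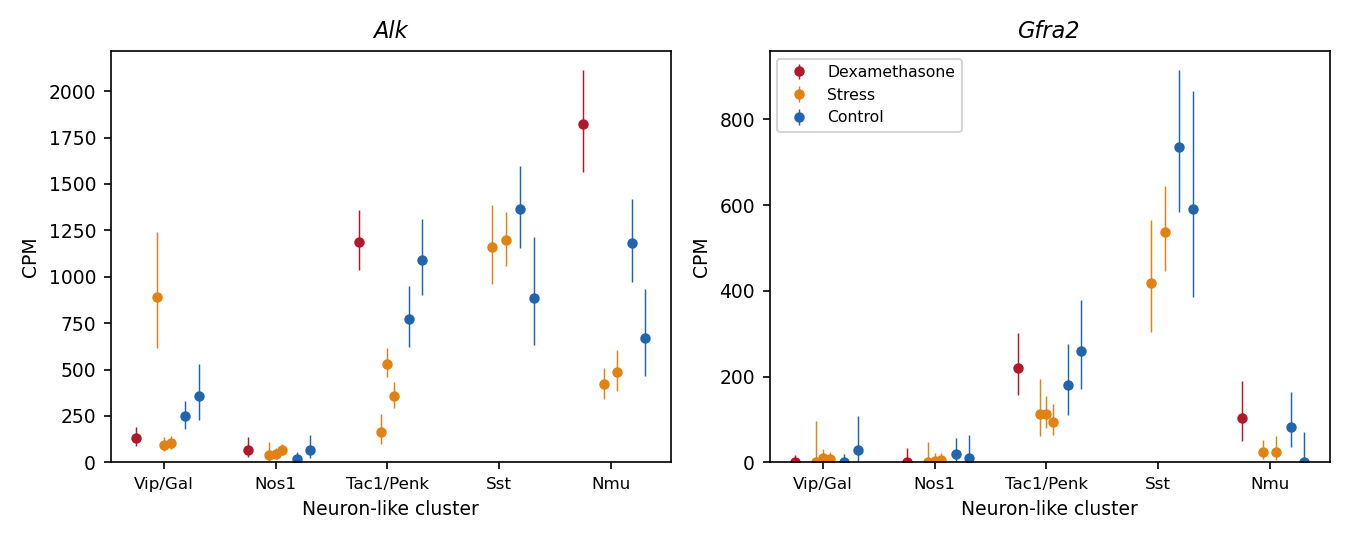
Alk (left) and Gfra2 (right) in the 5 neuron-like clusters, in CPM, for Dexamethasone, Stress and Control libraries with at least 20000 UMIs in the cluster; points are libraries and bars exact Poisson 95% intervals for counting error. In the Tac1 and Penk neurons all Stress points lie below both Control points for both genes, and in the Sst neurons the Alk points of Stress and Control overlap.

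The makeup of the neuron-like class varied between libraries, and the groups overlapped in it. The Sst neurons, highest in Alk and Gfra2, gave 2.81% of neuron-like UMIs in the Dexamethasone library and 2.88%, 8.19% and 16% in the Stress libraries, against 16.5% and 12.4% in Control. By nuclei they were 2.86% of the neuron-like class in Dexamethasone, 14.7%, 17% and 19.2% in Stress and 19.1% and 22.6% in Control, closer together than by UMIs. The summed level of the 9 smooth muscle markers in neuron-like nuclei was 169 to 460 CPM in Stress and 225 and 262 CPM in Control, and that of the 12 glia markers was 117 to 276 CPM in Stress and 124 and 168 CPM in Control, with the glia marker Fabp7 at 0 in all 6 libraries. Other marker sums in neuron-like nuclei did not overlap. The 5 excitatory motor neuron markers summed to 2860, 2083 and 2007 CPM in Stress against 1348 and 1627 CPM in Control. The 6 nitrergic neuron markers summed to 1924, 2659 and 2601 CPM in Stress against 1864 and 1593 CPM in Control. The 6 pericyte markers, 1 of them at 0, summed to 36.3, 23.9 and 31.9 CPM in Stress against 8.99 and 14 CPM in Control. The 12 epithelium markers went the other way and were lower in Stress. They summed to 165, 403 and 223 CPM in Stress against 635 and 486 CPM in Control. Their part in the differences was not tested.

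In glia-like nuclei, 5 members could be tested between Stress and Control and none passed, although 136 of 6557 genes did by edgeR (2.07%), of which 99 were higher (1.51%) and 37 lower (0.564%) in Stress. Gfra1 was at 1223, 1610 and 1386 CPM in Stress, against 1079 and 1002 CPM in Control. Its log2 fold change was 0.39 ± 0.18 with an adjusted p of 0.387 by edgeR. Nrg3 was at 3058, 2742 and 3330 CPM in Stress, against 2372 and 2174 CPM in Control, a log2 fold change of 0.38 ± 0.18 with an adjusted p of 0.389. In both genes each Stress library was above both Control libraries. The same held in glia-like barcodes above the mitochondrial limit, where Gfra1 was at 1004, 1354 and 1089 CPM in Stress against 970 and 856 CPM in Control, and Nrg3 at 2839, 3290 and 2852 CPM in Stress against 2097 and 1711 CPM in Control. That made 2 of 5 members, against 17.1% of genes tested that were higher without overlap and 29.3% without overlap in either direction. Alk, with a log2 fold change of -0.09 ± 0.29, Gfra2 with 0.05 ± 0.28 and Nrg1 with -0.29 ± 0.43 overlapped between the groups.

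**Figure D5:**
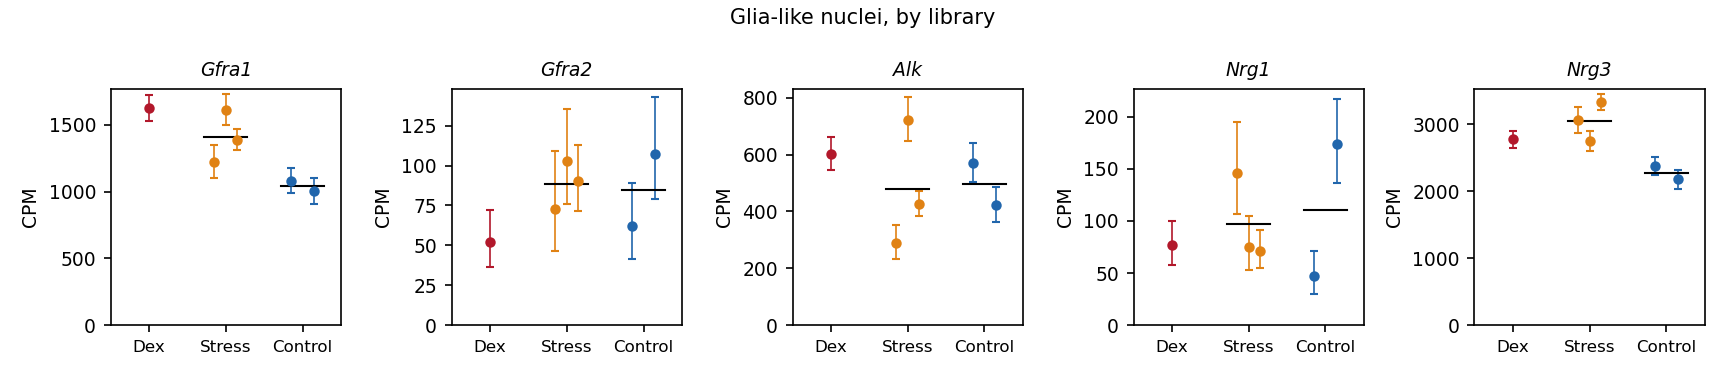
Level of the 5 tested genes in glia-like nuclei by library, in CPM; each point is 1 library with its exact Poisson 95% interval, and the line is the group mean (Dex, Dexamethasone, n = 1; Stress, n = 3; Control, n = 2). Gfra1 and Nrg3 points are higher in every Stress library than in both Control libraries, and the Alk, Gfra2 and Nrg1 points overlap.

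Different clusters held most of the glia in the groups. The Nr4a2 and Nr4a3 glia made up 73.9% of glia-like nuclei in the Dexamethasone library, 20%, 57.6% and 67.2% in the Stress libraries and 26.1% and 13% in the Control libraries. The Frzb glia made up 14.8% in Dexamethasone, 66.4%, 19.5% and 14.2% in Stress and 59.6% and 73.2% in Control. Nr4a2 and Nr4a3 were kept out of the clustering, whereas Frzb was not on the lists left out of it. Gfra1 was apart in the Nr4a2 and Nr4a3 glia, at 1349, 1713 and 1416 CPM in Stress against 951 and 890 CPM in Control, and in the Col28a1 glia, at 1220, 1439 and 1583 CPM in Stress against 924 and 932 CPM in Control. In the Frzb glia it overlapped, at 1153, 1353 and 1052 CPM in Stress against 1212 and 1039 CPM in Control. The log2 fold changes were 0.66, 0.54 and 0.04 with adjusted p-values of 0.151, 0.459 and 0.982 by edgeR, and whether the clusters differed in it was not tested. Some marker sums of the whole glia-like class moved the same way as Gfra1 and Nrg3. The 12 glia markers summed to 5290, 6243 and 6084 CPM in Stress against 4695 and 3772 CPM in Control. Most of it came from Cdh19, at 3670, 4693 and 4574 CPM in Stress against 3050 and 2159 CPM in Control. Single glia markers were split in direction. S100b, Foxd3 and Sox2 were also higher in every Stress library than in both Control libraries, whereas Gfap, Kcna1, Col28a1 and Fabp7 were lower. Gfap was at 187, 243 and 232 CPM in Stress against 363 and 329 CPM in Control. The 9 smooth muscle markers summed to 330, 207 and 338 CPM in Stress against 143 and 185 CPM in Control. The part of these in the Gfra1 and Nrg3 values was not tested. The count of 136 genes fell to 72 without the library Stress 2 and to 36 without Stress 3. Nrg1 in glia depended on the libraries used. With single libraries left out its log2 fold change was -0.95 without Control 1 (adjusted p = 0.175) to 0.91 without Control 2 (adjusted p = 0.441) by edgeR. With both Control 1 and Stress 1 left out it was -1.28, with an adjusted p of 0.00874.

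The difference between the neuron and glia responses to stress was tested as an interaction. It was -1.07 ± 0.36 on the log2 scale for Gfra2 (neuron minus glia; adjusted p = 0.359 by edgeR) and -0.76 ± 0.32 for Alk (adjusted p = 0.517). For Nrg3 it was -0.57 ± 0.28, with an adjusted p of 0.633. No member of the 8 tested passed, and 1 of 8208 genes did (0.0122%), a count that was 2 to 41 with single libraries left out and was highest without Stress 2. The stress response of these genes was thus not shown to differ between neurons and glia.

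The Dexamethasone library was set against Control with the spread of all 6 libraries, since 1 library gives none of its own, and it shares its Control libraries with the Stress comparison. It was also the library counted with another version of the counting software, and this and the treatment cannot be told apart. In neurons no gene passed by edgeR (0% of 9282 genes), while 958 had an unadjusted p under 0.05 (10.3%) and DESeq2 called 17. Alk was at 712 CPM in the Dexamethasone library against 605 and 610 CPM in Control, a log2 fold change of 0.14 ± 0.23 with an adjusted p of 0.872. Gfra2 was at 98.9 CPM in Dexamethasone against 169 and 157 CPM in Control, a log2 fold change of -0.82 ± 0.33 with an adjusted p of 0.421. In barcodes above the mitochondrial limit neither order held, with Alk at 321 CPM in Dexamethasone against 209 and 406 CPM in Control, and Gfra2 at 72.8 CPM in Dexamethasone against 62.5 and 68.9 CPM in Control. Under the stricter nucleus filter the log2 fold change of Gfra2 was 0.25, with the direction turned. Gfra1 was at 422 CPM against 307 and 236 CPM in Control, and Ltk at 37.9 CPM against 58.4 and 61.8 CPM in Control, with adjusted p-values of 0.534 and 0.616. Of the 70 neuron-like nuclei of this library, 45 were in the Nmu cluster with a median of only 658 UMIs. The smooth muscle marker sum in its neuron-like nuclei was 925 CPM, the highest of the 6 libraries, and its part in these values was not tested.

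In glia, 456 of 7731 genes differed between Dexamethasone and Control by edgeR (5.9%), and no member was among them. Gfra1 was at 1626 CPM in Dexamethasone, the highest of the 6 libraries, against 1079 and 1002 CPM in Control, a log2 fold change of 0.73 ± 0.26 with an adjusted p of 0.112. Above the mitochondrial limit it was at 1028 CPM in Dexamethasone, below 2 of the 3 Stress libraries there and above 970 and 856 CPM in Control. Nrg3 was at 2773 CPM in Dexamethasone against 2372 and 2174 CPM in Control, a log2 fold change of 0.37 ± 0.25 with an adjusted p of 0.472. Above that limit it lay between the Control libraries, at 1881 CPM in Dexamethasone against 2097 and 1711 CPM in Control. Gfra2 was at 52.0 CPM in Dexamethasone against 61.9 and 107 CPM in Control, with an adjusted p of 0.440. The summed smooth muscle markers in glia-like nuclei were at 721 CPM in Dexamethasone, 207 to 338 CPM in Stress and 143 and 185 CPM in Control, and their part was not tested.

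Outside the nervous system only Nrg1 and Nrg3 in fibroblast-like nuclei had enough counts for a test. Nrg1 was at 691, 149 and 239 CPM in Stress, against 745 and 276 CPM in Control, and the groups overlapped. Its log2 fold change was -0.61 ± 0.55 with an adjusted p of 0.754 by edgeR, and 20 of 1723 genes passed in this class (1.16%), a count that was 6 to 10 without any 1 of Stress 1, Stress 2, Stress 3 and Control 2. Without Control 1 the value for Nrg1 was 0.26, with the direction turned. Nrg3 had a log2 fold change of 0.42 ± 0.70 with an adjusted p of 0.883. In smooth muscle-like nuclei none of the 10 genes passed the count filter, while 9 of 2764 genes differed (0.326%).

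Genes that work with the members were followed as 6 lists of 89 genes in all: other GDNF-family, neurotrophin, ALK and ErbB ligands and receptors, their adaptors and feedback genes, and partners of Ret in enteric development. In neurons under stress 51 of the 89 were tested and none passed, 28 of them having a log2 fold change above 0. The median was 0.04, beside 0.0010 for all genes tested. In glia under stress 46 were tested and 1 passed, a share near the 2.07% of all genes called in that comparison. That gene was Sorcs2, which encodes a sorting receptor for proneurotrophins, at 120, 128 and 88.3 CPM in Stress against 299 and 224 CPM in Control. Its log2 fold change was -1.30 ± 0.23, with an adjusted p of 0.00938 by edgeR, so that it fell. The call was lost without the library Stress 3 (-1.11, adjusted p = 0.0720) and under the stricter nucleus filter (-0.98, 0.278), and it was not made within any 1 glia cluster, where the log2 fold changes were -1.59 in the Frzb, -1.13 in the Nr4a2 and Nr4a3 and -1.28 in the Col28a1 glia. The median of the 46 was -0.05, beside -0.01 for all genes tested.

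In glia of the Dexamethasone library 52 of the 89 were tested and 2 passed, a smaller share than the 5.9% of all genes called. Sorcs2 fell here too, with a log2 fold change of -1.29 ± 0.32 (adjusted p = 0.0206, edgeR). It was at 101 CPM in Dexamethasone against the same Control libraries, and did not pass without Control 1 (-1.04, adjusted p = 0.0897), by DESeq2 (-1.27, 0.142) or under the stricter nucleus filter (-1.32, 0.107), where the log2 fold changes stayed of like size. Ednrb, the endothelin receptor that is mutated in some forms of Hirschsprung disease, rose by 1.55 ± 0.35 on the log2 scale to 271 CPM, against 96.0 and 100 CPM in Control (adjusted p = 0.00916, edgeR). It did not pass without the mitochondrial filter, at 0.87 with an adjusted p of 0.0661. Ednrb stood at 181, 295 and 142 CPM in the Stress libraries. In smooth muscle-like nuclei 27 were tested and 1 passed, where 0.326% of all genes did. Ptprz1, a receptor phosphatase that binds pleiotrophin, fell in Stress with a log2 fold change of -3.04 ± 0.44, at 29.1, 96.6 and 69.8 CPM against 327 and 749 CPM in Control (adjusted p = 0.0176, edgeR). It did not pass without Stress 1 (-2.79, adjusted p = 0.139) or Stress 3 (-3.06, 0.0709), and the count of 9 genes in this class was 0 without Stress 1, 19 without Stress 2, 2 without Stress 3, 33 without Control 1 and 20 without Control 2. Over 17 alternatives, leaving out cluster 18 among them, the log2 fold change of Ptprz1 was -3.56 to -2.18. Cluster 18 gave 23, 11 and 33 of the smooth muscle-like nuclei in Stress and 8 and 2 in Control. Cluster 6 gave 44, 30 and 44 in Stress and 47 and 21 in Control. The 12 glia markers summed to 36.4 to 75.9 CPM in these Stress nuclei and 57.6 and 16.7 CPM in Control, with 3 of them at 0 in all libraries. The part of this makeup and of these markers was not tested. None of the 56 listed genes tested in Dexamethasone neurons and none of the 18 tested in fibroblast-like nuclei passed.

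The genes whose levels over the 22 clusters most resembled each member were read off as a description, by Pearson correlation of log2(CPM + 10) among 10234 genes; the clusters share libraries, so no p is given. Ret was closest to Crmp1, Ap3b2 and Jph4 (r of 0.971, 0.968 and 0.964). Gfra1 was closest to Sorcs1 (0.888), Stk32a (0.880) and Lrriq1 (0.855). Gfra2 was closest to Prima1 (0.900) and Col5a3 (0.877), and the third was Alk itself (0.860). Ltk was closest to Rprml (0.972), followed by the transmitter genes Gal (0.884) and Nos1 (0.883). Ntrk3 was closest to Syt2 (0.938), the serotonin receptor gene Htr3a (0.900) and Rbfox3 (0.897). Alk was closest to Nell2 (0.951), Lrrn2 (0.936) and Slitrk5 (0.915). Nrg1 was closest to Pi4ka (0.871), Dclk1 (0.847) and March4 (0.834), and Nrg3 to Frmd5 (0.952), Gria1 (0.948) and Cadm1 (0.942).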

How the data were processed

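Single-nucleus libraries of colon nuclei (Dexamethasone n = 1, Stress n = 3, Control n = 2) were analysed from the deposited counts, whole numbers of UMIs per gene and barcode, which the authors made with Cell Ranger 4.0.0 (Control, Stress) and 5.0.1 (Dexamethasone), per the file headers. The submitters' processing notes name Cell Ranger 5 and 5.0 and mm10. The other deposited files hold names of genes and barcodes, other values. Barcodes with at least 300 genes and at most 5% mitochondrial counts were kept. Scrublet marked 31 doublets (0.896%), which were removed. Library totals ran from 6057994 to 14838057 UMIs, which limits precision for genes of few UMIs, and intervals and floors cover counting error only.

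Nuclei were clustered with Scanpy 1.11.5 (2000 variable genes, 30 components, resolution 1.0) without the members, the pathway genes and several other lists. The members, lists and naming thresholds were chosen with earlier results of these data known. UMIs summed per library and class were tested across all genes with edgeR 4.0.16 (filterByExpr, TMM, quasi-likelihood F-test, Benjamini-Hochberg threshold 0.05, R 4.3.3); for the interaction, library was a block. All members were named in every comparison, and listed genes where they passed. Means by cluster used libraries with at least 20000 UMIs in the cluster. Alternatives were DESeq2 1.42.0, other filters, resolutions and thinning, left-out libraries and a replicate block. Leaving out cluster 18, leaving out Control 1 with Stress 1, and the levels in barcodes above the mitochondrial limit were chosen after seeing the data. The scripts were tested on simulated data.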

Additional observations from a re-analysis of the deposited data

How the results depend on the processing

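Whether replicate numbers paired the samples could not be decided. Deviations of same-numbered Stress and Control libraries had correlations of 0.0137 and 0.0709 in neurons and -0.155 and -0.0223 in glia. The correlations of each Stress library with the Control libraries were equal in size and opposite in sign. These values could therefore show neither pairing nor its absence. With the replicate block Gfra2 in neurons under stress had a log2 fold change of -1.30 (adjusted p = 0.0343, edgeR), and Alk -0.97 (0.0569); the block called 27 genes for Stress in neurons, 67 for Dexamethasone in neurons, 24 for the interaction and 39 each in smooth muscle and fibroblasts. Over all 598 alternative values of the members, 544 kept direction and side of the threshold, 49 turned direction and 5 passed where the reported value did not. Those 5 were Alk by DESeq2, Alk (-0.89, adjusted p = 0.00235) and Gfra2 (-0.97, 0.00604) without the filter on low counts, Gfra2 under the block and glial Nrg1. For each change below, the cause was not tested.

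Counts of genes passing moved as follows. DESeq2 gave 20 for Stress and 17 for Dexamethasone in neurons, 87 and 201 in glia, and 19 in smooth muscle. Without the count filter the numbers were 145 for Stress and 213 for Dexamethasone in neurons, 31 for the interaction, 42 in smooth muscle and 54 in fibroblasts. Without the mitochondrial filter they were 12 and 168 in neurons, 268 for Stress in glia, 83 for the interaction, 2 in smooth muscle and 10 in fibroblasts. The stricter nucleus filter gave 5 for Dexamethasone in neurons, 32 and 241 in glia, 12 for the interaction, 17 in smooth muscle and 12 in fibroblasts. Without Control 1 and Stress 1 they were 60 in neurons, 336 in glia, 36 for the interaction, 103 in smooth muscle and 84 in fibroblasts. Within clusters, Stress gave 8 in the Nos1 neurons and 19, 13 and 84 in the Col28a1, Frzb, and Nr4a2 and Nr4a3 glia. For Dexamethasone in neurons, thinning gave 8, resolution 2.0 gave 27 and members among the clustering genes gave 46. The interaction gave 7 at resolution 2.0, 20 with members among the clustering genes and 2 with doublets kept. Smooth muscle gave 3 at resolution 0.5. Leaving out single libraries gave 0 to 1 for Stress and 0 to 48 for Dexamethasone in neurons (48 without Stress 1), 36 to 186 and 342 to 502 in glia, 2 to 41 for the interaction, 0 to 33 in smooth muscle and 6 to 28 in fibroblasts.

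Log2 fold changes that turned direction did not pass the threshold in either setting. Without the mitochondrial filter these were Ret -0.0446, Ltk 0.0292 and Nrg1 0.18 for Stress in neurons, Ret -0.39, Alk -0.15 and Nrg1 0.0344 for Dexamethasone in neurons, and Ret -0.10 and Nrg1 0.35 for the interaction. Under the stricter filter they were Gfra1 -0.0285, Ntrk3 -0.35 and Nrg3 0.063 for Stress in neurons, Ret -0.57, Gfra2 0.25, Ntrk3 -0.76 and Nrg3 0.33 for Dexamethasone in neurons, Nrg1 0.14 for Dexamethasone in glia and Nrg1 0.24 for the interaction. Under the block they were Gfra1 -0.0548 and Ltk 0.0057 in neurons, Nrg1 0.0197 in glia and Nrg3 -0.60 in fibroblasts. Thinning turned Ltk in neurons (0.12) and Gfra2 in glia (-0.12), and members among the clustering genes turned Alk for Dexamethasone in neurons (-0.0363). Without Control 1 and Stress 1, Gfra2 (-0.20) and Alk (0.40) in glia and Nrg1 for the interaction (0.84) turned. Within clusters Stress values turned for Ret (-0.43) and Nrg3 (0.40) in Sst, Gfra1 (-0.0192) and Alk (0.42) in Nos1, Ltk (0.0932) in Vip and Gal, Nrg1 (0.35) in Tac1 and Penk, Gfra2 (-0.69) and Alk (0.51) in Col28a1 glia and Nrg1 (0.20) in Nr4a2 and Nr4a3 glia. Leaving out single libraries turned Gfra1 (-0.0712 to 0.32), Ntrk3 (-0.22 to 0.31) and Ltk (-0.44 to 0.026) for Stress in neurons, Gfra2 (-0.29 to 0.48), Alk (-0.48 to 0.15) and Nrg1 (-0.95 to 0.91) in glia, Nrg1 for Dexamethasone in glia (-1.08 to 0.77), the interaction (-1.29 to 0.58) and fibroblasts (-1.45 to 0.26). Gdnf and Ntf3 in every class, and Ret, Ntrk3 and Ltk in glia alone, did not reach the count filter among the nuclei reported. In the interaction Ret, Ntrk3 and Ltk were tested on neuron and glia counts together.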
